A study of Homo sapiens with 6 samples.

Results

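Long noncoding RNA genes that carry small nucleolar RNAs (snoRNAs) in their introns, together with a set of widely studied noncoding RNAs such as NEAT1, MALAT1, NORAD and MEG3, were examined in AC16 cells exposed to PA. The members were every row named SNHG followed by digits (24 rows) and 23 further named genes, of which 22 were found and RPPH1 is not analysed here. This gave 46 of the 29638 gene rows, 28 of them snoRNA hosts and 18 other noncoding RNAs. AC16 is an established human cell line, derived from ventricular cardiomyocytes of adult heart tissue that were fused with fibroblasts transformed by SV40. All 6 libraries came from wild-type (WT) AC16 cells. The 3 control libraries are labelled with ethanol as the treatment, and the 3 PA libraries are labelled Palmitelaidic Acid, while the series title speaks of palmitic acid, so PA is used here as in the sample titles. Neither dose nor duration is stated in the labels. Whether replicate libraries came from separate cultures is also unstated, so a p-value reflects the spread of these 6 libraries alone, and that spread may be technical.

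Most snoRNA hosts are transcribed as ordinary spliced genes whose introns are trimmed into snoRNAs. Box C/D snoRNAs guide 2′-O-methylation and box H/ACA snoRNAs guide pseudouridylation of ribosomal RNA, while the related scaRNAs act on spliceosomal RNAs in Cajal bodies. The spliced host RNA that remains is often short-lived, because ribosomes meet early stop codons on it and nonsense-mediated decay removes it, and many hosts begin with the terminal oligopyrimidine (TOP) tract that also marks ribosomal protein genes. NEAT1 is the scaffold RNA of the nuclear bodies called paraspeckles, MALAT1 is held in nuclear speckles, and NORAD is a cytoplasmic RNA that binds the Pumilio proteins.

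The values are RPKM, a read count scaled by transcript length and by the mapped reads of the library. Their sum over all genes ran from 733025 to 809535 in 5 libraries and reached 881369 in PA 3. The read totals are unknown, and steps between low values placed the relative depth at 1.14 in PA 1 and between 0.938 and 1.03 in the others. The labelled cell type was not borne out by its defining markers: 9 of 10 cardiomyocyte markers averaged below 1 RPKM, TNNT2 was listed at 0 in 4 libraries, and the list summed to between 0.90 and 2.79 RPKM in control libraries and between 3.64 and 4.33 RPKM in PA libraries. TNNI3 was the marker that passed the test, with 0.61, 1.39 and 0.74 RPKM in the control libraries against 3.32, 3.99 and 2.6 RPKM in the PA libraries (limma, adjusted p = 0.0288; lost without control 1, control 3, PA 1 or PA 2, with adjusted p up to 0.133, and 0.0855 without the filter on low values). TNNI3 made up most of the cardiomyocyte sum in each PA library. Other markers of that list went the other way. NPPA had 0.11, 0.17 and 0.25 RPKM and MYH6 had 0.01, 0.06 and 0.03 RPKM in control libraries. Both were listed at 0 in every PA library and lay below the level at which genes were tested. All 10 fibroblast markers were measured, with sums of 3082 to 3630.1 RPKM in control and 2808 to 2945 RPKM in PA libraries, mostly from VIM. COL3A1, a fibrillar collagen gene, fell from 3.81 ± 0.247 to 0.860 ± 0.0781 RPKM (log2 fold change -1.37 ± 0.13, limma, adjusted p = 0.00730; 0.0507 without PA 2), and COL1A1 had -1.18 ± 0.27 (limma, adjusted p = 0.0510). Of the 10 fibroblast markers, 8 had negative and 2 had positive log2 fold changes, with a median of -0.23. The positive ones were COL1A2 (0.18 ± 0.11) and S100A4 (0.18 ± 0.23), both with overlapping groups. In 4 of the 10 every PA library lay below every control library, where 15.9% of all tested genes did so. The sums of both marker lists did not overlap between the groups, and their part in the results below was not tested. In such bulk libraries, fewer cells of a type and less RNA per cell cannot be told apart.

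To show what the hosts carry, the snoRNAs inside the hosts that the results turn on are printed from the GENCODE 29 annotation of GRCh38, on the plus strand, with the C box and the D box of the box C/D RNAs, or the ACA box of the box H/ACA RNAs, in capitals. SNHG29 holds 3 box C/D snoRNAs on chromosome 17, at chr17:16440036-16440106 (SNORD49A), chr17:16439505-16439576 (SNORD49B) and chr17:16441226-16441298 (SNORD65).
SNORD49A: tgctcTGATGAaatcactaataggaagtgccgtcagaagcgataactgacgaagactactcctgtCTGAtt
SNORD49B: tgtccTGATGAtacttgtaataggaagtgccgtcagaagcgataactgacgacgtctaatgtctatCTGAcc
SNORD65: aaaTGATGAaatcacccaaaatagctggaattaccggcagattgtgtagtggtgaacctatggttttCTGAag
SNORD49A and SNORD49B share an identical stretch of 35 nt between the boxes, whereas the longest stretch SNORD49A shares with SNORD65 is 12 nt.

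ZFAS1 on chromosome 20 holds 3 box C/D snoRNAs of one sequence family, at chr20:49280683-49280772 (SNORD12), chr20:49280319-49280409 (SNORD12B) and chr20:49278940-49279028 (SNORD12C).
SNORD12: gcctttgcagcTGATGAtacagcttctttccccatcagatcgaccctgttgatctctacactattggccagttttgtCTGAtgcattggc
SNORD12B: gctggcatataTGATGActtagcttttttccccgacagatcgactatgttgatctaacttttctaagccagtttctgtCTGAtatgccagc
SNORD12C: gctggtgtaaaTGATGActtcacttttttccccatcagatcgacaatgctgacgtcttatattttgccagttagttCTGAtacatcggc
The longest identical stretch was 18 nt between SNORD12 and SNORD12C and 9 nt between SNORD12 and SNORD12B.

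DANCR and SNHG8, both on chromosome 4, hold 1 box H/ACA snoRNA each, at chr4:52713249-52713370 (SNORA26) and chr4:118279190-118279320 (SNORA24). They are printed as the H/ACA counterparts, with the ACA trinucleotide near the 3′ end in capitals.
SNORA26: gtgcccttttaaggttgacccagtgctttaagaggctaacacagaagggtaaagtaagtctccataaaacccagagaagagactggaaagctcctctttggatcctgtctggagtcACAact
SNORA24: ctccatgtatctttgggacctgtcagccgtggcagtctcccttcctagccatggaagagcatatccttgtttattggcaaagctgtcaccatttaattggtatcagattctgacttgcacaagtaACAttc
In that annotation 5 of the 8 printed snoRNAs, namely SNORD49A, SNORD49B, SNORD65, SNORD12 and SNORA24, also lie within an exon of some transcript of their host. SnoRNAs lack a poly(A) tail and mRNA libraries are not made to capture them, so the values here are those of host genes and do not give the levels of their snoRNAs.

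The most abundant members were snoRNA hosts. The plot of levels gives every library. GAS5, a growth arrest transcript that carries 10 box C/D snoRNAs in the RefSeq annotation, was the most abundant member, at 1757 ± 115 RPKM in control (SD, n = 3), and it ranked 66 among all rows by mean RPKM. SNHG29 (rank 151), ZFAS1 (rank 195), SNHG1 (rank 326) and SNHG6 (rank 337) followed. GAS5 alone made up 38.6% to 43.0% of the RPKM summed over the hosts. That host sum was 0.523% to 0.567% of all RPKM in control libraries, 0.554% in PA 1, 0.580% in PA 2 and 0.664% in PA 3, so the control and PA libraries overlapped.

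**Figure D1:**
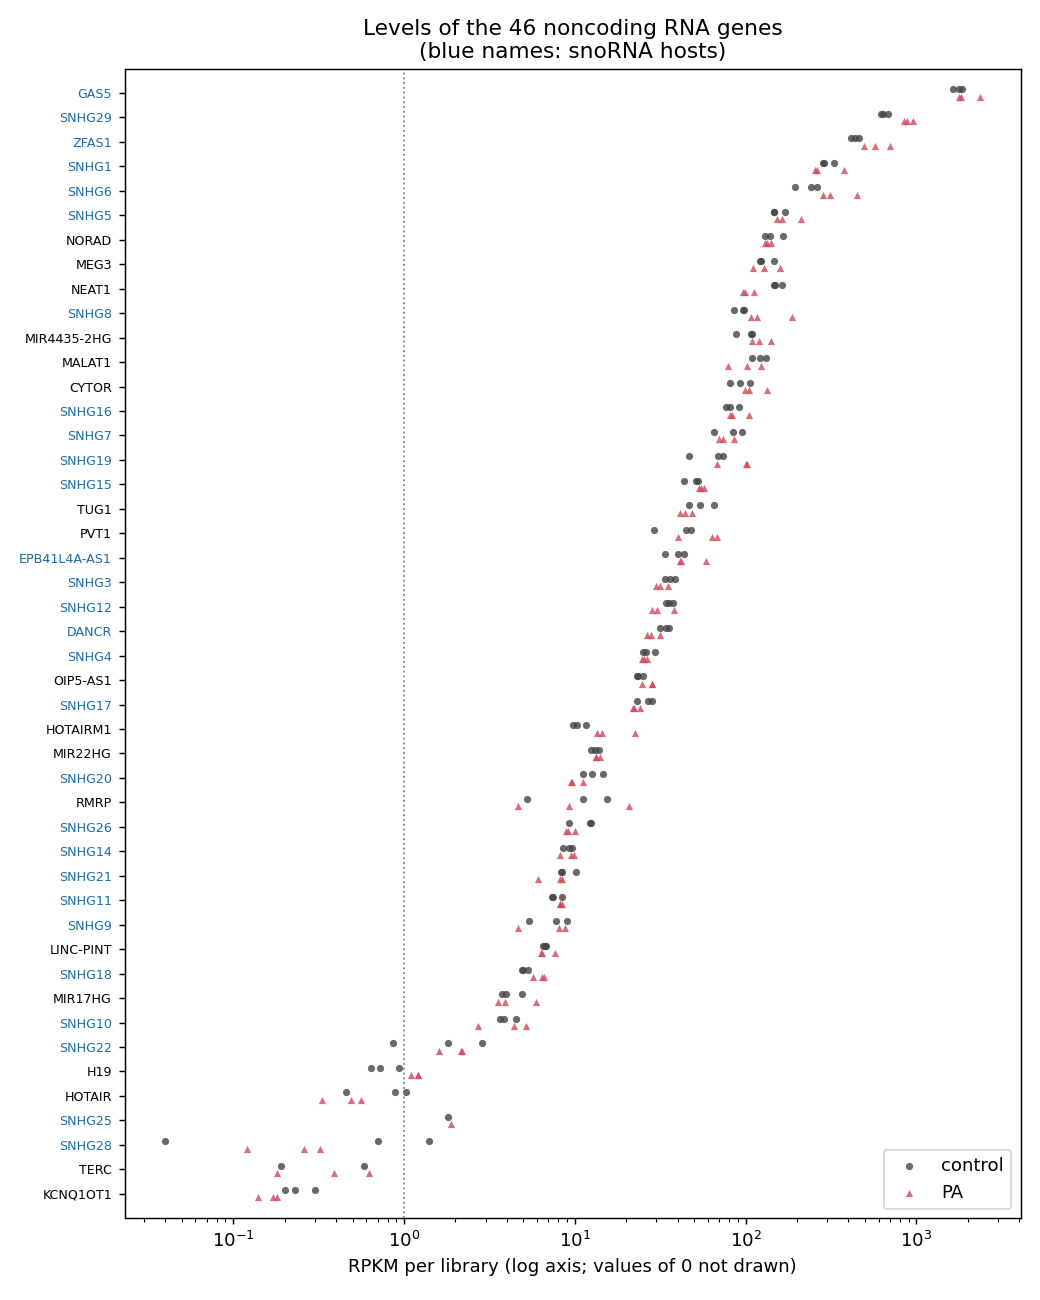
RPKM of the 46 members in each library on a log axis, ordered by mean (circles, control; triangles, PA; n = 3 each; the dotted line is the filter at 1 RPKM, and values of 0 are not drawn). GAS5 stands at the top near 1757 RPKM and 13 members averaged at least 100 RPKM, while KCNQ1OT1, TERC and SNHG28 lie lowest.

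Outside the hosts, NORAD (145 ± 18.7 RPKM), NEAT1 (153 ± 8.47 RPKM), MEG3 (131 ± 14.6 RPKM), MALAT1 (120.2 ± 11.1 RPKM) and MIR4435-2HG (102 ± 11.9 RPKM) stood close together in control libraries (SD, n = 3). The control ranges of MEG3 and MALAT1 overlapped, as did those of MEG3 and NORAD, so their order is not resolved by the replicates. At the other end, 6 members averaged below 1 RPKM over the 6 libraries and were not tested. These were SNHG25, SNHG28, H19, KCNQ1OT1, HOTAIR and TERC.

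For the comparison of PA with control, genes averaging at least 1 RPKM were fitted with limma on log2(RPKM + 1), and a gene was called at a Benjamini-Hochberg adjusted p under 0.05 over all 14159 genes tested. Of the 40 members tested, 2 passed, NEAT1 downward and SNHG29 upward, against 4.81% of all tested genes (2.84% higher and 1.97% lower in PA). The members' share is near that background. The values of all 3 PA libraries lay outside those of all 3 control libraries in 9 of the 40 members, 7 higher (background 16.7%) and 2 lower (background 15.9%), where 32.6% of all tested genes did so. The median log2 fold change was 0.05 over the 26 tested hosts, 0.03 over the 14 other members and -0.02 over all tested genes. In simulated data of this size, with independent values and 200 changed genes, the fit recovered 10.7% of genes changed by 0.5 on the log2 scale. It recovered 64.4% of those changed by 1. A miss among differences as small as most of those below therefore does not show that a gene kept its level.

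**Figure D2:**
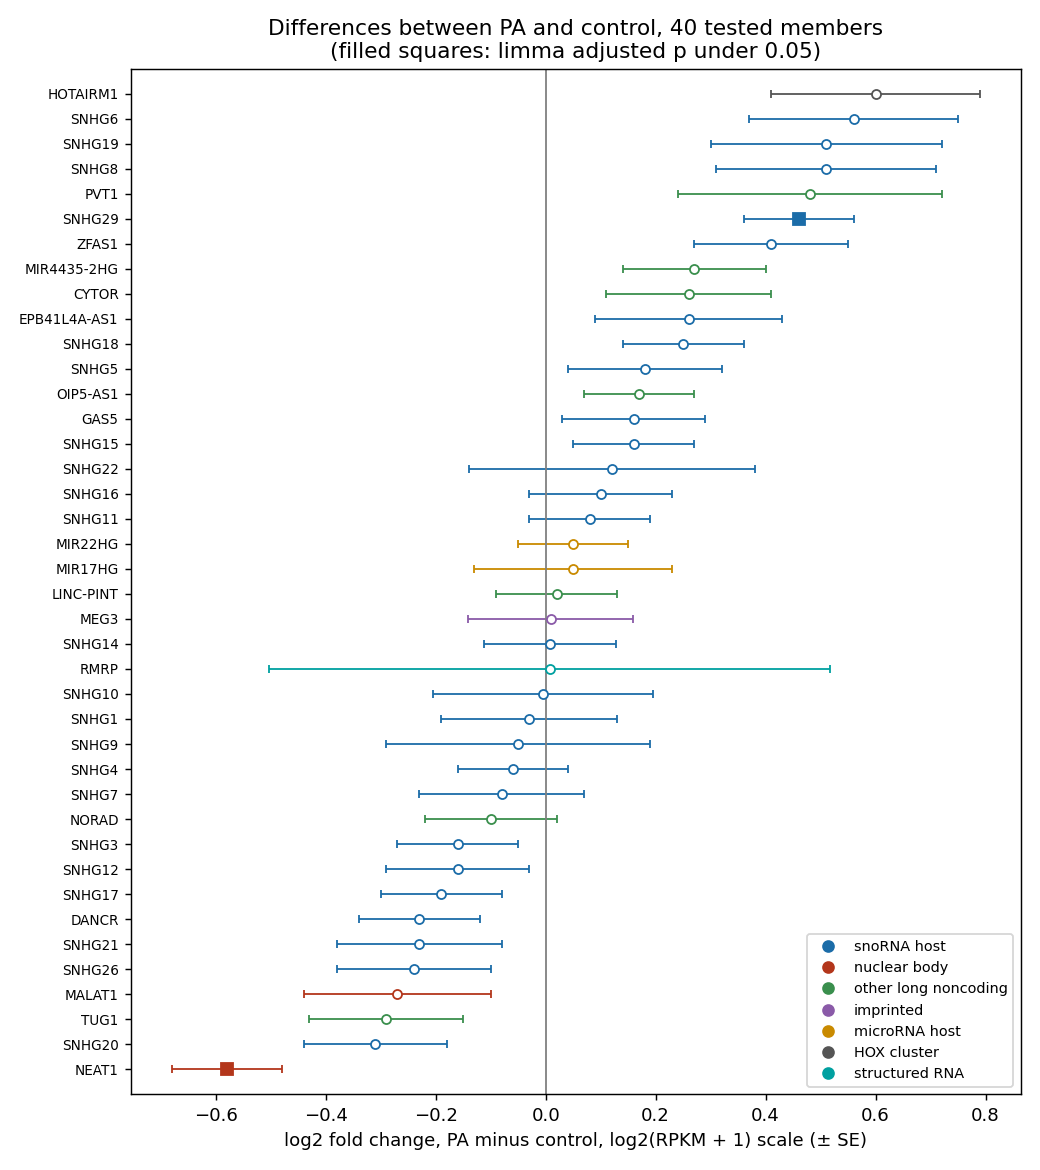
Log2 fold change (PA minus control, log2(RPKM + 1) scale) with its standard error for the 40 tested members, coloured by role. NEAT1 at -0.58 and SNHG29 at 0.46 are the filled squares that passed the test, and the other 38 members did not.

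NEAT1 fell to 0.67 times its control level. It stood at 163, 149 and 147 RPKM in the control libraries and at 111, 99.1 and 96.7 RPKM in the PA libraries. Every PA library was below every control library, and the spread within each group was small (153 ± 8.47 against 102 ± 7.93 RPKM, SD, n = 3). The log2 fold change was -0.58 ± 0.10 (SE; limma, adjusted p = 0.0305). NEAT1 is made as a short and a long form from one start, and a gene-level value does not tell them apart. The fall can therefore not be assigned to either form, and how far these mRNA libraries captured each form was not tested. Its call was lost without control 1, control 2, control 3 or PA 2 (adjusted p up to 0.144) and kept without PA 1 or PA 3, while the fold change in these 6 fits stayed between -0.64 and -0.53. It was also lost without the filter on low values (limma, adjusted p = 0.0692). With a fitted trend on transcript length and GC content removed it was -0.48 (limma, adjusted p = 0.0150).

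MALAT1, the speckle RNA that lies beside NEAT1 on chromosome 11, had 121, 109 and 131 RPKM in control and 122, 101 and 78.7 RPKM in PA. The groups overlapped, PA 3 being lowest and PA 1 lying within the control range. Its log2 fold change of -0.27 ± 0.17 did not pass (limma, adjusted p = 0.337), and it was -0.11 without PA 3. MALAT1 ends in a triple helix rather than a poly(A) tail, and whether capture of such RNAs differed between libraries was not tested. The difference between NEAT1 and MALAT1 in their response was not tested.

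Proteins of the same bodies were read from lists of known components. Among 16 rows for paraspeckle proteins, 2 fell and none rose, where 1.97% of all tested genes fell and 2.84% rose. SFPQ, a core paraspeckle protein that binds NEAT1, had 143, 150 and 166 RPKM in control and 66.7, 70.6 and 79.2 RPKM in PA. Its log2 fold change was -1.08 ± 0.11 (limma, adjusted p = 0.00730). RBM14, which is needed for paraspeckle assembly, had a log2 fold change of -0.54 ± 0.12 (limma, adjusted p = 0.0479). MATR3, a nuclear matrix protein with 2 rows in the files, had -0.63 in the row with the larger difference (limma, adjusted p = 0.0516), and it is the other MATR3 row whose exons overlap SNHG4 on the same strand. The median over the list was -0.18, against -0.02 over all genes. In 10 of the 16 rows every PA library lay below every control library, where 15.9% of all genes did.

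Of the 10 nuclear speckle proteins, 3 fell, none rose, and the median was -0.23. Over all tested genes 1.97% fell and 2.84% rose, and the median was -0.02. In 5 of the 10 every PA library lay below every control library, where 15.9% of all tested genes did so. SRSF1, a splicing factor that binds exonic enhancers, had 119.7, 123 and 125 RPKM in control libraries against 73.4, 56.4 and 61.7 RPKM in PA libraries. Its log2 fold change was -0.94 ± 0.12 (limma, adjusted p = 0.0131). BCLAF1 (-0.97 ± 0.11, limma, adjusted p = 0.0117) and THRAP3 (-0.67 ± 0.14, limma, adjusted p = 0.0421), a pair of related arginine- and serine-rich proteins that bind RNA, fell as well. SFPQ and BCLAF1 kept their calls in 4 of 6 fits that left out a library (lost without control 1 or PA 2), and SRSF1 in 2 of 6 (kept without PA 1 or PA 3). RBM14 and THRAP3 lost theirs in all 6, and also without the filter on low values; THRAP3 was at an adjusted p of 0.0549 (limma) on rescaling to a common sum.

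SNHG29 rose 1.38-fold. The control libraries held 641, 682 and 623 RPKM and the PA libraries 846, 884 and 953 RPKM. The groups were well separated, at 649 ± 29.9 and 894 ± 54.3 RPKM (SD, n = 3). The log2 fold change was 0.46 ± 0.10 (SE; limma, adjusted p = 0.0414), and 0.41 with the length and GC trend removed (limma, adjusted p = 0.0237). The call was lost in each of the 6 fits that left out a library (adjusted p 0.0582 to 0.182), with log2 fold changes of 0.42 to 0.50, and without the filter on low values (limma, adjusted p = 0.106). Its exons overlap those of LRRC75A on the opposite strand in GENCODE 29. LRRC75A, added after its values were seen, had only 1.62 ± 0.110 RPKM in control and 1.90 ± 0.309 RPKM in PA libraries.

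Another 4 hosts had higher means in PA that missed the threshold. ZFAS1 had 416, 438 and 458 RPKM in control and 494, 571 and 701 RPKM in PA. SNHG6 had 241, 263 and 193 RPKM in control and 283, 311 and 449 RPKM in PA. SNHG8 had 97.7, 85.1 and 96.2 RPKM in control and 117, 108 and 186.5 RPKM in PA. In these 3 genes no PA library overlapped the controls, and PA 3 was the highest library. Their log2 fold changes were 0.41 ± 0.14, 0.56 ± 0.19 and 0.51 ± 0.20 (limma, adjusted p = 0.115, 0.120 and 0.156). Without PA 3 they were 0.28, 0.36 and 0.27. SNHG19, a short host with 1 box C/D snoRNA, had 73.8, 68.8 and 46.5 RPKM in control and 68.0, 100.05 and 101 RPKM in PA, so PA 1 lay inside the control range (log2 fold change 0.51 ± 0.21, limma, adjusted p = 0.184).

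**Figure D3:**
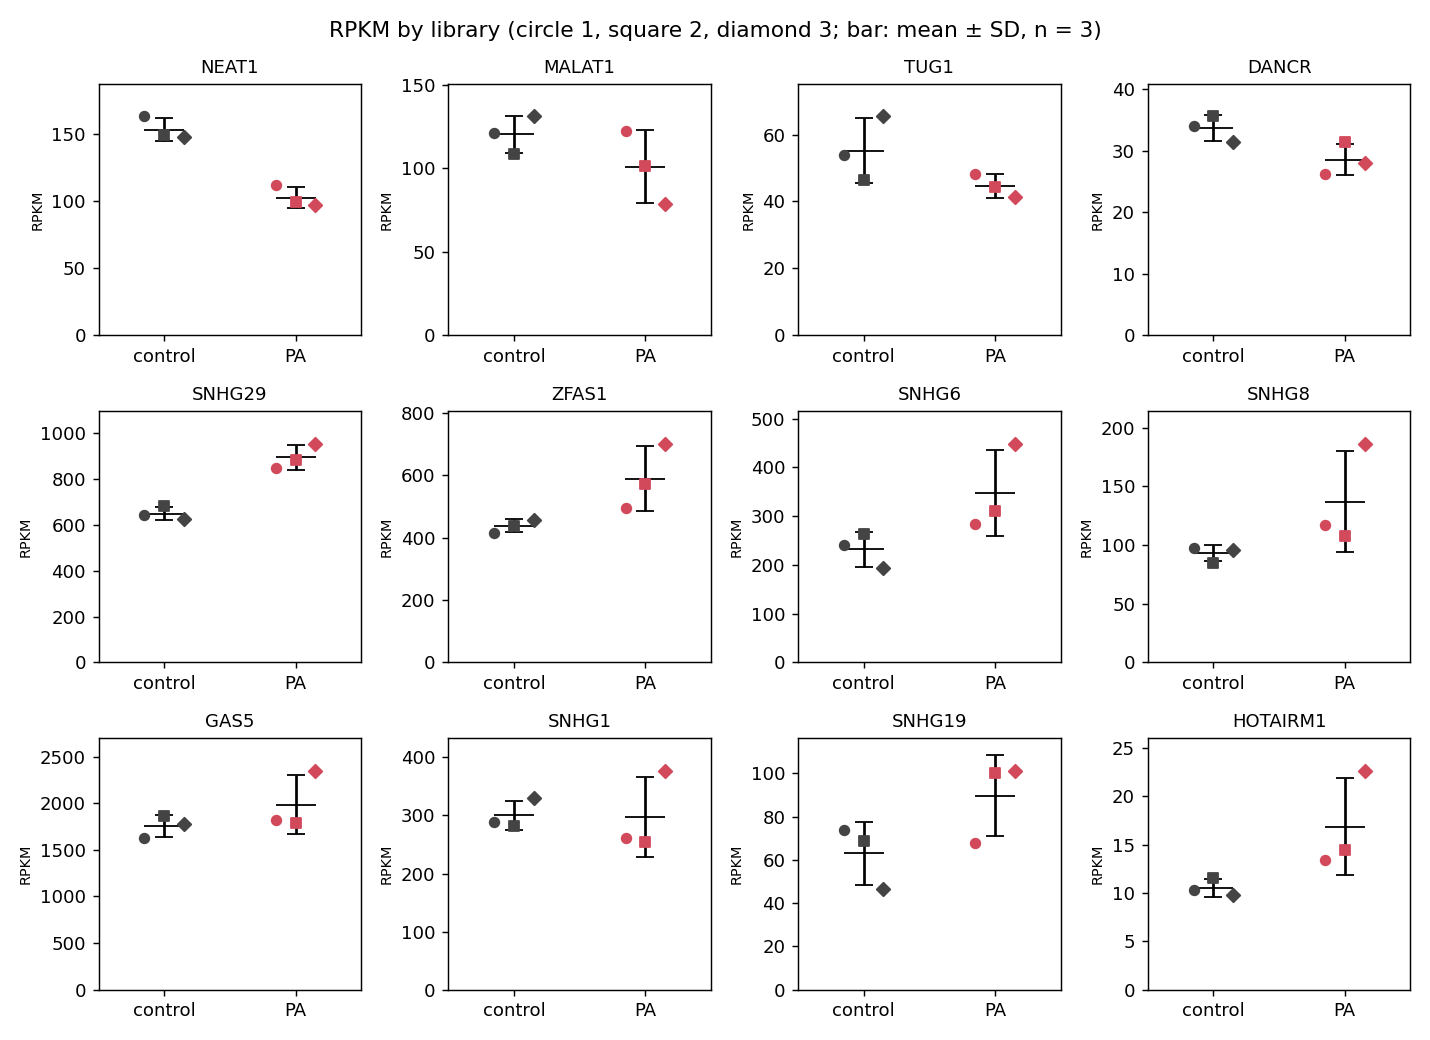
RPKM of 12 members by library (circle, square and diamond for libraries 1, 2 and 3; bars, mean ± SD, n = 3; each vertical axis starts at 0). NEAT1 and SNHG29 separate with little spread, whereas in ZFAS1, SNHG6, SNHG8, GAS5, SNHG1 and HOTAIRM1 the PA 3 library lies above the other PA libraries.

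Other abundant hosts had overlapping groups. GAS5, the most abundant of all, had 1632, 1858 and 1781 RPKM in control and 1817, 1783 and 2348 RPKM in PA. PA 1 and PA 2 lay inside the control range and PA 3 above it, and the log2 fold change was 0.16 ± 0.13 (limma, adjusted p = 0.460), or 0.04 without PA 3; it was -0.09 after quantile normalization. SNHG1, which carries 8 box C/D snoRNAs, had 288, 283 and 329.5 RPKM in control and 261, 255 and 377 RPKM in PA. Here PA 1 and PA 2 were the lowest libraries and PA 3 the highest, giving -0.03 ± 0.16 in all and -0.22 without PA 3. SNHG5, with 2 box C/D snoRNAs, had 0.18 ± 0.14 (0.04 without PA 3), and SNHG16, with 3, had 0.10 ± 0.13 (-0.02 without PA 3).

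PA 3 stood apart for the hosts as a class. It was the highest of the 6 libraries in 14 of 26 tested hosts and the lowest in none of them, whereas 23.2% of all tested genes were highest in PA 3. The hosts' median deviation from their own means was 0.18 on the log2 scale in PA 3 and between -0.05 and -0.02 in each of the other 5 libraries, while the median over all tested genes lay between -0.03 and 0.04 in every library. Without PA 3 the hosts' median log2 fold change was -0.02. PA 3 is also the library with the largest RPKM sum, and the part of that in the result was not tested.

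**Figure D4:**
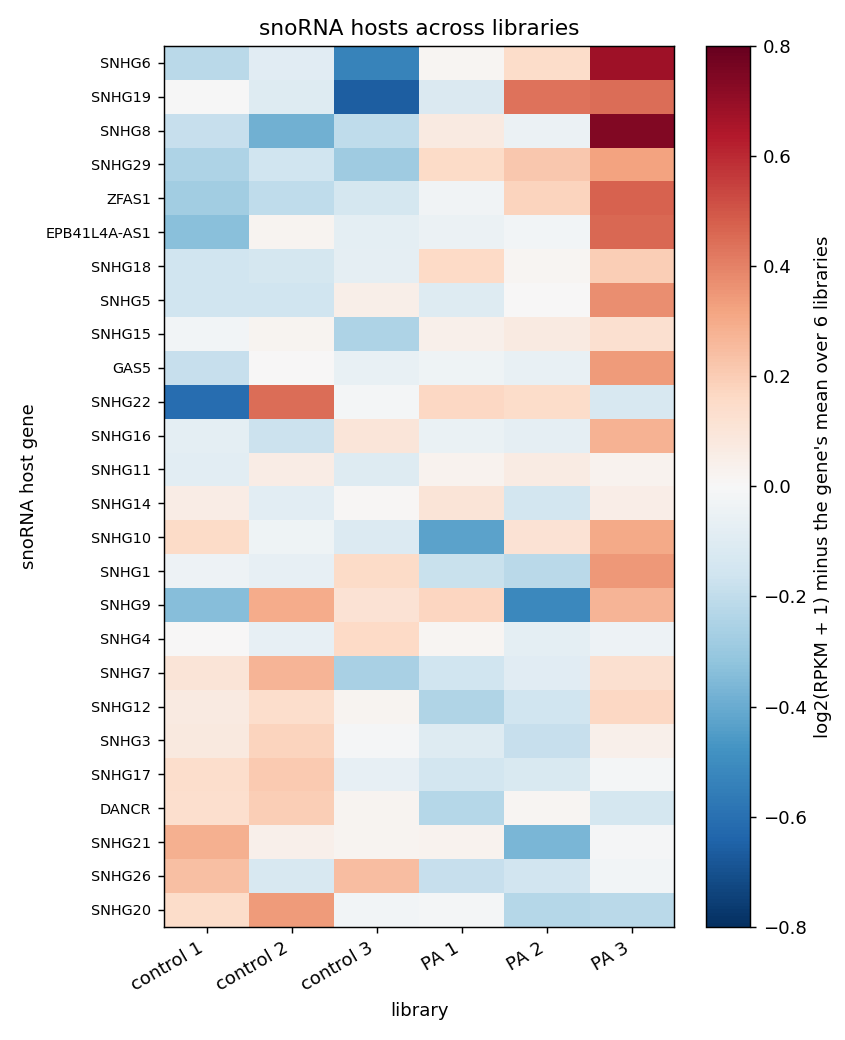
Log2(RPKM + 1) of the 26 tested snoRNA hosts in each library, minus the gene's mean over the 6 libraries (red higher, blue lower), ordered by log2 fold change. The PA 3 column is red in most rows, with a median deviation of 0.18, while PA 1 and PA 2 have medians of -0.03 and -0.05.

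The remaining hosts differed by less than SNHG29, ZFAS1, SNHG6, SNHG8 and SNHG19 did. SNHG15 had 51.2, 52.9 and 43.6 RPKM in control libraries against 53.5, 54.7 and 56.9 RPKM in PA libraries (log2 fold change 0.16 ± 0.11). SNHG18 had 4.91, 4.98 and 5.29 RPKM in control libraries against 6.38, 5.67 and 6.57 RPKM in PA libraries (0.25 ± 0.11). The groups did not overlap in either gene, and neither passed the test. EPB41L4A-AS1 had 0.26 ± 0.17. On the lower side, DANCR, a host with roles reported in progenitor differentiation, had 34.1, 35.6 and 31.4 RPKM in control and 26.3, 31.4 and 28.1 RPKM in PA. The nearest PA and control libraries of DANCR were almost level, and its log2 fold change was -0.23 ± 0.11 (limma, adjusted p = 0.229). SNHG20 (-0.31 ± 0.13), SNHG26 (-0.24 ± 0.14), SNHG21 (-0.23 ± 0.15), SNHG17 (-0.19 ± 0.11), SNHG12 (-0.16 ± 0.13) and SNHG3 (-0.16 ± 0.11) had lower means with overlapping groups. SNHG4, SNHG7, SNHG9, SNHG10, SNHG11, SNHG14 and SNHG22 lay between -0.08 and 0.12, with standard errors of 0.10 to 0.26.

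When hosts were grouped by the family of small RNA that RefSeq lists inside them, a grouping made after the values were seen and given without a test, the box C/D hosts lay higher than the others. Of 11 tested box C/D hosts 9 had positive log2 fold changes, with a median of 0.18 and a range from -0.24 (SNHG26) to 0.56 (SNHG6). Of 11 box H/ACA hosts 4 were positive, with a median of -0.06 and a range from -0.23 (DANCR) to 0.51 (SNHG8). The 4 scaRNA hosts SNHG10, SNHG20, SNHG21 and SNHG22 had a median of -0.12. The families also differed in abundance, at a median control level of 154 RPKM for box C/D, 35.7 RPKM for box H/ACA and 6.5 RPKM for scaRNA hosts, and the part of that was not tested. Without PA 3 the medians were 0.04, -0.16 and -0.22, and 7 of 11 box C/D hosts were positive. The box H/ACA median was 0.04 without control 2. The box C/D median was 0.07, with 7 of 11 positive, on rescaling to a common sum, and 0.09, with 8 of 11 positive, after quantile normalization.

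**Figure D5:**
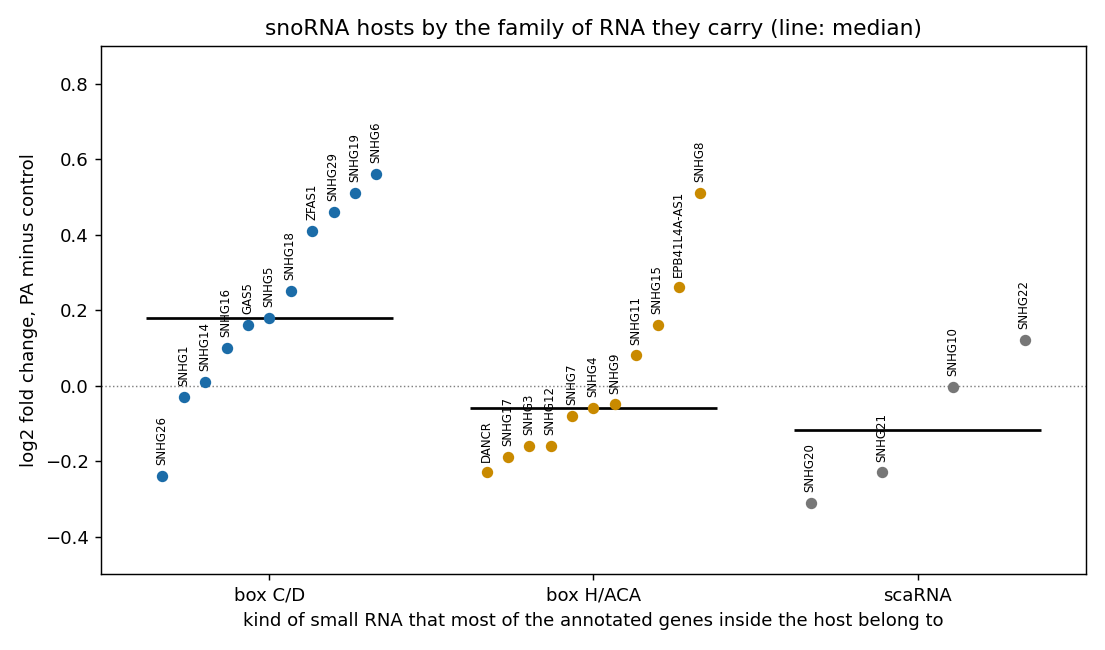
Log2 fold change (PA minus control, log2(RPKM + 1) scale) of each tested host by the family of small RNA it carries; the horizontal line is the family's median. The median is 0.18 for 11 box C/D hosts, -0.06 for 11 box H/ACA hosts and -0.12 for 4 scaRNA hosts, and the families overlap.

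Because snoRNA hosts are known as TOP genes, the annotated starts were read in the RefSeq promoter table (GRCh38.p14). A C within 10 bases of the start that at least 5 further pyrimidines follow, on the gene's strand, was present in 10 of 24 host windows (41.7%) and in 20.8% of the 35116 windows of the table. The match is by letters at an annotated start and does not show where transcription began in these cells. Windows of 50 bases are printed for the called host, for 3 others with a tract by that rule and for ZFAS1 without one. Each begins 25 bases before the start, so the annotated start is base 26, and the capitals mark the match nearest to the start. ZFAS1, like SNHG5, has a C at base 26 with pyrimidines after it, but fewer than 5. In SNHG29, as in SNHG7 and SNHG14, the match ends before the annotated start, so it lies outside the RNA annotated from there. In SNHG29, SNHG19 and SNHG12 pyrimidines also stand directly before the capitals, so the whole run begins earlier than the capitals do.
SNHG29, chr17:16438962-16439011, plus strand: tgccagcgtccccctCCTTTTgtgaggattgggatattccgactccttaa
SNHG8, chr4:118278737-118278786, plus strand: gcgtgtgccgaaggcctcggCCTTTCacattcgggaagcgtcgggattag
SNHG19, chr16:2155334-2155383, minus strand: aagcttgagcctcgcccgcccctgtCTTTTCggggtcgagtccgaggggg
SNHG12, chr1:28581849-28581898, minus strand: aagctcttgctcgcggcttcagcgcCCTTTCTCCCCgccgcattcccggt
ZFAS1, chr20:49278617-49278666, plus strand: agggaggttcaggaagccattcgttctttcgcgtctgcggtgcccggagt
SNHG29, SNHG8 and SNHG19 had higher values in PA and SNHG12 lower ones, so hosts with a match by this rule lay on both sides of 0. The same held where the marked match begins at the annotated start itself. There SNHG19 had 0.51 and SNHG18 had 0.25, while SNHG4 had -0.06 and SNHG12 had -0.16. The E-box CACGTG was in 1 of 24 host windows of 300 bases (4.17%, against 7.26% of all windows, both strands). The cyclic AMP response element TGACGTCA (1.85% of all windows) and the ATF4 composite letters TGATGCAA (0.866%) were in 0 host windows.

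Genes that make, use or remove host RNAs were read from 3 lists. Of 17 tested proteins and assembly factors of snoRNA particles, 1 rose and none fell, with a median of -0.09. Over all tested genes 2.84% rose and 1.97% fell, with a median of -0.02. PIH1D1, a subunit of the R2TP complex that helps assemble box C/D particles, went from 73.9 ± 5.80 to 105 ± 8.02 RPKM (log2 fold change 0.51 ± 0.11, limma, adjusted p = 0.0427). SNU13, the protein that binds the C/D motif, had 0.39 ± 0.10 (limma, adjusted p = 0.0657), and SHQ1, a chaperone of the H/ACA protein dyskerin, had -0.50 ± 0.12 (limma, adjusted p = 0.0580). Neither passed the threshold, though the groups did not overlap in either gene.

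Of 18 nonsense-mediated decay factors, 2 fell and none rose, and 16 had negative log2 fold changes with a median of -0.12. Over all tested genes 1.97% fell and 2.84% rose, and 7429 of 14159 had negative log2 fold changes (median -0.02). UPF2, which bridges the helicase UPF1 to the exon junction complex, had 14.6, 13.3 and 16.7 RPKM in control and 9.30, 9.25 and 9.57 RPKM in PA. Its log2 fold change was -0.61 ± 0.12 (limma, adjusted p = 0.0343). SMG9, a partner of the UPF1 kinase SMG1, went from 35.4 ± 1.42 to 24.1 ± 1.87 RPKM (-0.54 ± 0.10, limma, adjusted p = 0.0345). Of 24 protein-coding snoRNA hosts outside the ribosomal proteins, 1 fell and none rose (median -0.08). HSPA8, the constitutive heat shock cognate chaperone, went from 1548 ± 55.3 to 1059.5 ± 82.4 RPKM (-0.55 ± 0.10, limma, adjusted p = 0.0322). RACK1, a ribosome scaffold protein, had 0.38 ± 0.11 (limma, adjusted p = 0.0910), and EEF1B2, an elongation factor subunit, had 0.28 ± 0.14. The calls of PIH1D1, UPF2 and SMG9 were lost in each of 6 fits that left out a library (adjusted p 0.0526 to 0.176), and that of HSPA8 was kept only without PA 3. All 4 were lost without the filter on low values, and PIH1D1 on rescaling to a common sum (limma, adjusted p = 0.0705).

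Among the other long noncoding RNAs, none of 7 passed. PVT1, the neighbour of MYC, had 47.6, 45.0 and 29.2 RPKM in control and 40.4, 68.1 and 63.3 RPKM in PA. PA 1 lay inside the control range, and the log2 fold change was 0.48 ± 0.24 (limma, adjusted p = 0.251). MYC itself had 0.31 ± 0.13 (limma, adjusted p = 0.172). TUG1, a nuclear RNA with reported roles in chromatin, had 53.8, 46.3 and 65.4 RPKM in control and 48.4, 44.3 and 41.2 RPKM in PA (-0.29 ± 0.14, limma, adjusted p = 0.242). NORAD had 140, 129 and 166 RPKM in control and 142, 129 and 133 RPKM in PA (-0.10 ± 0.12), a difference within the control spread, and it was 0.09 with the length and GC trend removed. CYTOR (0.26 ± 0.15) and MIR4435-2HG (0.27 ± 0.13) are near-identical copies whose reads the counting could split between them, so neither value is certain alone. OIP5-AS1 (0.17 ± 0.10) and LINC-PINT (0.02 ± 0.11) completed the group.

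Of the 4 tested partners of NORAD, 1 fell and none rose, with a median of -0.25. Over all tested genes 1.97% fell and 2.84% rose, with a median of -0.02. RBMX, a nuclear RNA-binding protein, fell from 191 ± 13.3 to 131 ± 4.03 RPKM (-0.54 ± 0.10, limma, adjusted p = 0.0314). Among the fits that left out a library its call was kept only without PA 3. The call was also lost without the filter on low values (limma, adjusted p = 0.0688) and with a replicate block (limma, adjusted p = 0.0630). PUM2, which NORAD sequesters, had -0.18 ± 0.13 and overlapping groups.

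The imprinted, HOX and structured RNAs gave no call. MEG3, the maternally expressed RNA of the DLK1 locus, had 147, 123 and 121 RPKM in control and 159, 128 and 110 RPKM in PA, with overlapping groups and a log2 fold change of 0.0095 ± 0.15. HOTAIRM1, a noncoding RNA known from myeloid cells, had 10.3, 11.6 and 9.75 RPKM in control and 13.5, 14.5 and 22.6 RPKM in PA. The groups were separate with PA 3 highest, and the log2 fold change of 0.60 ± 0.19, the largest upward one among the tested members, did not pass (limma, adjusted p = 0.104; 0.38 without PA 3). RMRP, the RNA of RNase MRP, ran from 5.27 to 15.5 RPKM in control and from 4.65 to 20.8 RPKM in PA. That spread within groups leaves its log2 fold change of 0.0071 with a standard error of 0.51. None of 10 RNase P and RNase MRP proteins and none of 9 telomerase partners passed the test in either direction; POP1, a shared RNase subunit, had -0.46 ± 0.15 (limma, adjusted p = 0.108), and WRAP53, which directs telomerase RNA to Cajal bodies, had -0.32 ± 0.12 (limma, adjusted p = 0.141).

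The members below the filter are given by their values. H19, an imprinted fetal growth RNA, had 0.72, 0.94 and 0.64 RPKM in control and 1.2, 1.21 and 1.1 RPKM in PA. KCNQ1OT1, the antisense RNA of the KCNQ1 domain, had 0.23, 0.20 and 0.30 RPKM in control and 0.18, 0.17 and 0.14 RPKM in PA. Neither pair of groups overlapped, but both lay below the level at which genes were tested. HOTAIR ran from 0.46 to 1.02 RPKM in control and from 0.33 to 0.56 RPKM in PA. SNHG25 was listed at 0 in 4 libraries, while control 3 had 1.81 RPKM and PA 3 had 1.88 RPKM. SNHG28 ran from 0.04 to 1.39 RPKM and TERC, the telomerase RNA, from 0 to 0.62 RPKM over the 6 libraries. TERC and RMRP normally lack a poly(A) tail, so their levels in mRNA libraries do not give their amounts in the cell.

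MIR17HG on chromosome 13 and MIR22HG on chromosome 17, the hosts of the miR-17-92 cluster and of miR-22, also stayed within their spread. MIR17HG had 3.76, 3.94 and 4.90 RPKM in control and 3.55, 3.92 and 5.90 RPKM in PA (log2 fold change 0.05 ± 0.18). MIR22HG had 13.1, 13.8 and 12.5 RPKM in control and 14.1, 13.4 and 13.3 RPKM in PA (0.05 ± 0.10). The microRNAs were not measured; the mature sequences (RefSeq, GRCh38.p14) are shown for what the hosts encode, with the seed, bases 2 to 8, in capitals.
hsa-miR-17-5p: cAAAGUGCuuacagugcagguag
hsa-miR-20a-5p: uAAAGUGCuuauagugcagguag
hsa-miR-18a-5p: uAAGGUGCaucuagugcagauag
hsa-miR-19a-3p: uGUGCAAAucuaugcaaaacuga
hsa-miR-19b-3p: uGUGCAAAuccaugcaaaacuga
hsa-miR-92a-3p: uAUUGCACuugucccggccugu
hsa-miR-22-3p: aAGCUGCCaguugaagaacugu
The miR-17 and miR-20a forms share one seed, the miR-19a and miR-19b forms share another, and miR-22 has a seed of its own.

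Many of these genes overlap others, and whether the authors counted by strand is not stated. In GENCODE 29, exons of 25 of the 46 members overlap another gene in the files, 22 on the opposite and 8 on the same strand, so part of their reads could belong to the partner. NEAT1 and MALAT1 overlap none, nor do SNHG1, SNHG5 and SNHG8. Of 18 tested genes listed as neighbours, 1 rose and none fell. Over all tested genes 2.84% rose and 1.97% fell. The list includes PARP2 (0.34 ± 0.10, limma, adjusted p = 0.0782), which lies next to RPPH1, a gene not analysed here. TRNAU1AP, a protein of selenocysteine tRNA use that overlaps SNHG12 on the opposite strand, went from 21.4 ± 2.04 to 32.4 ± 1.51 RPKM (0.58 ± 0.11, limma, adjusted p = 0.0343, lost in each fit that left out a library, without the filter on low values and on rescaling to a common sum), while SNHG12 had -0.16. ZNFX1, which starts opposite ZFAS1, had -0.46 ± 0.20 (limma, adjusted p = 0.198) where ZFAS1 had 0.41. RPS2, a ribosomal protein gene opposite SNHG9, had 0.42 where SNHG9 had -0.05, and RCC1, whose exons SNHG3 shares on the same strand, had -0.16, as did SNHG3. IGF2, the imprinted growth factor gene next to H19, had 9.81, 8.32 and 8.09 RPKM in control libraries against 7.06, 6.62 and 4.69 RPKM in PA libraries. Its groups did not overlap, and its log2 fold change of -0.46 ± 0.16 did not pass (limma, adjusted p = 0.122; 0.0281 with the length and GC trend removed). The other tested neighbours ranged from -0.42 (ZBTB37, beside GAS5) to 0.61 (CDKN1C, in the KCNQ1OT1 domain).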

How the data were processed

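Values are RPKM per gene and library as deposited by the authors (3 control and 3 PA libraries). The submitters' processing notes name hg19 as genome build and RSEM, StringTie, HISAT2, fastp and FastQC as tools, without versions; strand use and read totals are not stated. Per the labels' protocols, libraries were made from total RNA with an mRNA-Seq kit. RPKM is not a count, so limma 3.58.1 (R 4.3.3, eBayes with trend, two-sided) was run on log2(RPKM + 1) for genes averaging at least 1 RPKM, with Benjamini-Hochberg adjustment over 14159 genes; fold changes on this scale understate those of low genes. On simulated data of that size, with independent normal values and 200 changed genes, 4.35% of calls were false. The real fit called 681 genes, and real libraries may share variation between genes, so this share need not hold for it. Names, lengths, overlaps and snoRNA positions came from GENCODE 29 (GRCh38), promoters and microRNAs from RefSeq (GRCh38.p14). Small RNA counts by host joined the names of both annotations, for RefSeq without a match of strand. Length and GC content were known for 95.2% of tested genes. Of the 46 members, 41 promoter windows were found, several for one gene in some cases, and 24 were of hosts. The members and lists were chosen with earlier results of these data known. Named were every member, every tested neighbour or its range, and from each list the genes that passed or, where fewer than 3 passed, those with the largest differences. A few genes that this rule names are not reported here. Alternatives were other pseudocounts and filters, other scalings, other variance settings, a length and GC trend removed, a replicate block and leaving out each library.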

Additional observations from a re-analysis of the deposited data

How the results depend on the processing

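Over 19 alternatives to the fit, 691 of 760 member values kept their direction and their side of the threshold, 17 lost and 5 gained a call, and 47, in 15 members, changed sign. Members past the threshold numbered 0 without a filter on low values, 1 with eBayes without trend and 0 to 1 when 1 library was left out. With the length and GC trend removed 3 passed, SNHG20 being the added one (limma, adjusted p = 0.0476). With that trend taken from the longest basic transcript, an alternative chosen after seeing the data, 6 passed. Same-numbered control and PA libraries had correlations of their deviations from the group means of 0.157, -0.0144 and 0.0371. The other pairs ran from -0.179 to 0.121. Deviations from the mean of 3 libraries are tied to each other. These values therefore cannot decide whether same-numbered libraries were prepared together. With a replicate block 0 members passed, and 0 with block and trend removal together. Genes past the threshold numbered 72 without a filter, 98 with a replicate block, 1742 with the trend removed, 372 with trend and block, 1153 among protein-coding genes and members, 2213 with the longest transcript and 10 to 364 with 1 library left out. Genes of the other lists past it numbered 11 in the main fit, where 681 of all genes passed. They numbered 3, 3, 19 and 6 without a filter, with the block, with the trend removed and with trend and block. With the longest transcript 24 passed, and 0 to 6 with 1 library left out. In each of these settings the count over all genes moved the same way from its main value. Members whose groups did not overlap numbered 9 to 16 of 40 with 1 library left out, where 37.1% to 46.2% of all tested genes did so. Rescaling to a common sum moved the median of all genes to -0.11, of hosts to -0.05 and of other members to -0.06; the last was 0.08 after quantile normalization and with the longest transcript, and 0.01 to 0.09 with 1 library left out. The cause of these differences was not tested.

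Signs changed on common-sum rescaling for LINC-PINT (-0.07), MEG3 (-0.10), MIR17HG (-0.04), MIR22HG (-0.05), RMRP (-0.09), SLC3A2 (-0.02), SNHG11 (-0.01), SNHG14 (-0.09), SNHG16 (-0.0082) and UBE3A (-0.10). They changed after quantile normalization for GAS5 (-0.09), MEG3 (-0.06), SLC3A2 (-0.04) and SNHG10 (0.03), and at a pseudocount of 0.1 for RMRP (-0.0019). With the trend removed, with or without the block, they changed for CCDC107 (-0.0045), MEG3 (-0.05), MIR22HG (-0.04), NORAD (0.09), RMRP (-0.10) and SNHG11 (-0.02), and with the longest transcript for CCDC107 (-0.06), NORAD (0.04), RMRP (-0.06), SNHG11 (-0.09) and SNHG22 (-0.0028). Leaving out 1 library gave ranges that crossed 0 for CCDC107 (-0.02 to 0.25), LINC-PINT (-0.05 to 0.06), MEG3 (-0.13 to 0.13), MIR17HG (-0.13 to 0.17), OIP5 (-0.31 to 0.0068), RMRP (-0.50 to 0.48), SNHG1 (-0.22 to 0.07), SNHG10 (-0.16 to 0.21), SNHG14 (-0.04 to 0.08), SNHG16 (-0.02 to 0.17), SNHG22 (-0.15 to 0.37), SNHG7 (-0.23 to 0.04), SNHG9 (-0.23 to 0.19) and UBE3A (-0.10 to 0.07).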
